A study of Mus musculus with 6 samples.

Results

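The messages described here are those of the glycolytic enzymes and of the cellular response to low oxygen, 33 mouse genes chosen by name. They comprise 15 enzymes of glycolysis, 3 carriers of glucose and lactate, 3 regulators of glycolytic flux, hypoxia-inducible factor 1 alpha with 2 of the hydroxylases that control it, and 9 genes that hypoxia induces. On the array 18193 genes had at least 1 probe set annotated to no other gene, and 10200 of them had a mean above the limit for testing, a signal of about 13. Of the 33 members 29 had such a probe set and 27 were tested. Slc16a3 and P4ha2 were below the limit on dim probe sets. Gapdh was represented by 3 Affymetrix control probe sets. Gpi1 and Eno1 were not named in the annotation used, and Bnip3l had probe sets shared with another symbol, so these 3 genes were not analysed here.

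The samples were 32D cells, a murine myeloid line cultured with interleukin-3. Of the 6 samples, 3 carried the empty expression construct A1-EV and 3 carried the construct C2-MiR-9, for miR-9 and miR-9*, written miR-9/9* below. All 6 were kept in RPMI with 10% fetal calf serum, penicillin, streptomycin and 10 ng/ml of murine interleukin-3, so the controls differed from the miR-9/9* cells in the construct. Each group had samples numbered 1, 2 and 3, and the series calls the replicates independent. The sources used here do not give the oxygen level, the cell density at harvest, the promoter that drove the construct or whether the cells came from a single clone. Each value is the mean over a mixed culture, in which fewer cells with a message and less of it per cell cannot be told apart.

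Glycolysis splits glucose into pyruvate in the cytosol and yields ATP without oxygen, and lactate dehydrogenase then reduces pyruvate to lactate so that the pathway can go on. When oxygen is scarce, the prolyl hydroxylases that mark HIF-1 alpha for destruction lose activity, the protein builds up, and with its partner ARNT it binds hypoxia response elements near many genes, glycolytic enzymes among them. Growth factors such as interleukin-3 also raise glucose uptake and glycolysis in blood cell lines.

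The expressed hairpin yields a mature microRNA from each arm, and the seed that pairs with target messages is shown in capitals (bases 2 to 8, RefSeq, GRCm38.p6). In the older naming miR-9 is the 5p strand and miR-9* the 3p strand.
mmu-miR-9-5p: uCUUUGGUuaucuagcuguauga
mmu-miR-9-3p: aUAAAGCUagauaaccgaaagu

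Each array was scaled to a trimmed mean of 100, and the median signal ran from 12.0 to 15.2. Spearman correlations between arrays lay between 0.919 and 0.942. The ratio of the 3' to the 5' control probe set, a sign of RNA or cDNA integrity, ran from 0.739 to 0.889 for Gapdh and from 1.19 to 1.35 for Actb. The lowest Gapdh ratios were on the arrays with number 3, at 0.739 with empty vector and 0.760 with miR-9/9*. Of 10 markers of the myeloid progenitor line, 9 were above the limit, with Elane below it, and 0 of 5 fibroblast markers were above it. The summed signal of 9 erythroid markers was 1270 to 1340 with empty vector and 1981 to 2178 with miR-9/9*, and did not overlap between the groups. The summed signals of the megakaryocyte (1233 to 2268 against 1509 to 2871), late neutrophil (981 to 3899 against 218 to 2628), eosinophil (255 to 1376 against 277 to 3617) and mast cell and basophil markers (45.1 to 209 against 33.02 to 235) overlapped. Between samples of the same number, the megakaryocyte and eosinophil sums were higher with miR-9/9* in 3 of 3 pairs and the late neutrophil sum lower in 3 of 3. With the replicate number as a block, limma called 3 of 6 tested erythroid, 4 of 6 megakaryocyte and 2 of 3 eosinophil markers higher, 3 of 5 late neutrophil markers lower, and 0 of 5 mast cell and basophil markers. Among all tested genes, 1.51% were called higher with the block and 1.44% lower.

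Among the 27 tested members, Bnip3 was lower in miR-9/9* cells and was the sole member to pass the test, when samples of the same replicate number were compared (the replicate number as a block in the model). Its protein sits in the outer mitochondrial membrane and marks mitochondria for autophagy in hypoxia. The other hypoxia-induced genes did not pass, and neither did any of the 12 tested enzymes. In the fit without the block 0 of 27 members had an adjusted p below 0.05, where 0.0588% of all tested genes did (limma, two-sided, Benjamini-Hochberg over all 10200 genes). With the block 1 member was called lower, against 1.44% of all genes, and 0 were called higher, against 1.51%. Without adjustment, the blocked fit gave p below 0.05 for 7 members that were lower, where 8.27% of genes were, and for 1 that was higher, where 8.70% were. The block compares samples of the same number and leaves 2 residual degrees of freedom. Without the block a p-value sets the difference against the spread within the groups. With it, the difference is set against the spread of the same-number differences. All p-values rest on the spread between these samples and on variances moderated over all tested genes.

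By sign alone, 20 of the 27 members had a lower mean with miR-9/9* and 7 a higher one. The median difference was -0.09 on the log2(signal + 16) scale, beside 0.01 over all genes tested, of which 4850 of 10200 were lower. In all 3 pairs of the same number, 10 members were lower, where 18.0% of genes were, and 2 were higher, where 21.0% were. The 10 were Pfkm, Pfkp, Tpi1, Pkm, Ldha, Slc2a1, Slc2a3, Egln3, Bnip3 and Ndrg1. The 2 were Hk1 and Pfkfb4. The groups did not overlap for 1 member with lower signals, Tpi1, where 4.73% of genes were separated that way, and for 0 members with higher signals, where 5.10% were. A sign or a separation is not a call, and single members are described below with their own tests.

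**Figure D1:**
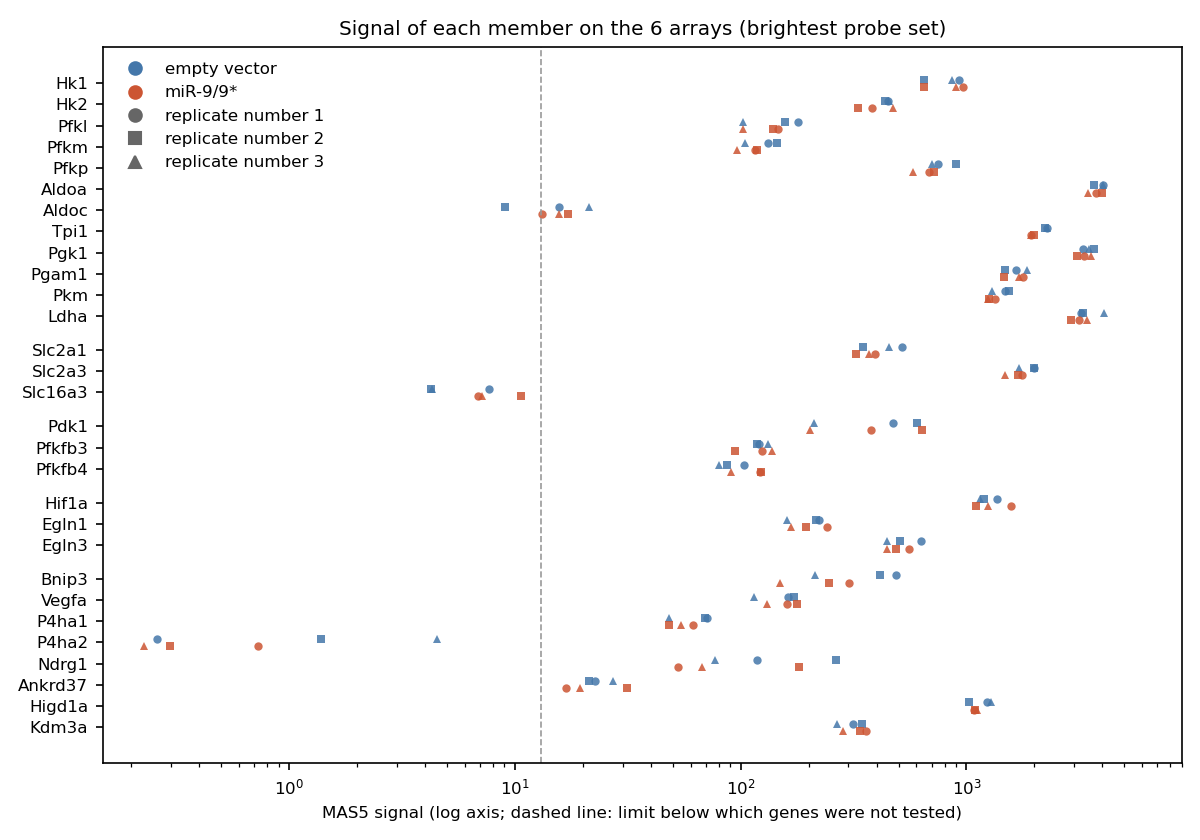
MAS5 signal (log axis) of the brightest probe set of each of 29 members on the 6 arrays, in blocks by role, with colour for the group and symbol for the replicate number. The dashed line is the limit, a signal of 13, that was applied to the mean over arrays. Slc16a3 and P4ha2 lie left of it, and the colours overlap in every row but Tpi1.

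Of the 12 enzymes that were tested, 10 had a lower mean with miR-9/9*, Hk1 and Aldoc had a higher one, and 0 passed the test in either fit. Their differences ran from -0.24 to 0.04, with a median of -0.14. Signals of different probe sets depend on their probes, so levels were not compared between genes.

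Aldolase A, which splits fructose 1,6-bisphosphate, had signals of 4042, 3670 and 4033 with empty vector, in the order of numbers 1 to 3, and of 3755, 3966 and 3446 with miR-9/9*. The groups overlapped, and number 2 was higher with miR-9/9* while the other numbers were lower. Number 2 was lower in each of the other 4 Aldoa probe sets, of which 2 had separated groups, at 2191, 2369 and 2582 against 2126, 2051 and 2143 and at 2180, 2266 and 2281 against 1982, 1960 and 1753. The adjusted p of these with the block was 0.369 and 0.197 among all probe sets. In the main probe set the mean was 3915 ± 212 against 3722 ± 262 (SD, n = 3 each). The log2 difference was -0.07 (95% interval with the block -0.29 to 0.14), with an adjusted p of 0.999 without the block and 0.758 with it. Phosphoglycerate kinase 1, which makes the first ATP of the pathway, had signals of 3282, 3664 and 3470 with empty vector and 3312, 3097 and 3542 with miR-9/9*. Number 2 was lower, by -0.24, while numbers 1 and 3 lay at 0.01 and 0.03, and the log2 difference was -0.07 (interval -0.27 to 0.14, adjusted p with the block 0.774). Both other Pgk1 probe sets were lower in each pair, at -0.12 and -0.33, the latter with number 3 at -0.81. Their groups overlapped, and their adjusted p with the block was 0.586 and 0.273 among all probe sets.

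Triosephosphate isomerase, Tpi1, which interconverts the 3-carbon products of aldolase, is named because its groups were separated, a choice made after its values were seen. Its signals were 2269, 2223 and 2267 with empty vector and 1936, 1997 and 1924 with miR-9/9*. All miR-9/9* samples were below all empty vector samples, and the samples within a group lay close together (2253 ± 26.2 against 1952 ± 39.2). The log2 difference was -0.21 (interval -0.37 to -0.04), which did not pass the test with the block (adjusted p = 0.192) or without it (0.999). Its other probe sets gave the same picture. One read 2006, 2075 and 2082 against 1678, 1839 and 1783, and the other 1332, 1311 and 1212 against 1075, 1124 and 1043. With 3 probe sets separated in the same direction the reading did not depend on the choice of probe set, although probe sets of a gene share the same RNA and are not replicates.

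The other enzymes are given by their differences, again after their values were seen. The platelet and muscle forms of phosphofructokinase, the committed step, differed by -0.24 (Pfkp, interval -0.39 to -0.08, adjusted p with the block 0.114) and -0.18 (Pfkm, interval -0.39 to 0.03, adjusted p 0.367). Pfkp was lower in each pair, at 746, 895 and 705 against 683, 718 and 582. Pyruvate kinase, Pkm, which makes pyruvate and the last ATP, read 1486, 1542 and 1302 against 1338, 1261 and 1241 (log2 difference -0.17, adjusted p with the block 0.280). Lactate dehydrogenase A, Ldha, read 3225, 3286 and 4043 against 3152, 2916 and 3408 (-0.15, interval -0.34 to 0.04, adjusted p with the block 0.421). For Pfkp, Pfkm, Pkm and Ldha the group ranges overlapped while each pair was lower. Pfkl, Pgam1 and Aldoc had pairs of both signs, with differences of -0.14, -0.01 and 0.02 (adjusted p with the block 0.504, 0.972 and 0.980). The 2 hexokinases, which trap glucose in the cell, went in different directions without passing the test, at -0.18 for Hk2 (adjusted p with the block 0.342) and 0.04 for Hk1 (0.792).

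The Gapdh control probe sets read the oxidising step of the pathway at the 5', middle and 3' part of its message. The 3' probe set gave 4081, 4091 and 4951 with empty vector and 4278, 3945 and 4321 with miR-9/9*. The differences from 5' to 3' were -0.05, -0.07 and -0.06, the groups overlapped, and in number 1 the miR-9/9* sample was the higher at each of the 3 probe sets. The control probe sets were kept out of the tests, and with them kept the brightest one had an adjusted p of 0.855 with the block.

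Both tested carriers had lower means with miR-9/9* and did not pass the test. Slc2a3, the high-affinity glucose carrier GLUT3, read 1998, 2000 and 1704 with empty vector and 1760, 1694 and 1477 with miR-9/9*. Each pair was lower, at -0.18, -0.24 and -0.20 on the log2 scale, and the groups overlapped through the empty vector sample of number 3. The log2 difference was -0.21 (interval -0.36 to -0.05, adjusted p with the block 0.168). Slc2a1, the widely expressed carrier GLUT1, read 516, 347 and 455 against 395, 323 and 371. It was lower in each pair, lowest in number 2 in both groups, and differed by -0.25 (interval -0.42 to -0.08, adjusted p with the block 0.127). The other Slc2a1 probe sets differed less, by -0.08 and -0.07, each with 1 pair higher. Slc16a3, the lactate exporter MCT4, was below the limit on dim probe sets at 5.42 ± 1.98 and 8.24 ± 2.13 and was not tested.

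Among the regulators of flux, none passed the test between the groups. Pyruvate dehydrogenase kinase 1, Pdk1, which inhibits the pyruvate dehydrogenase complex, read 472, 603 and 211 with empty vector and 379, 635 and 203 with miR-9/9*. The groups had almost the same range, whereas number 3 was low and number 2 high in both. The log2 difference was -0.09 (interval -0.28 to 0.09, adjusted p with the block 0.633). Pfkfb3 and Pfkfb4 make and degrade fructose 2,6-bisphosphate, the activator of phosphofructokinase. Pfkfb3 read 121, 118 and 132 against 125, 94.3 and 137 and differed by -0.06 (adjusted p with the block 0.818). Pfkfb4, named after its values were seen, was the member with the largest difference above 0 at 0.26 (interval 0.03 to 0.49). It read 103, 87.1 and 79.8 against 122, 123 and 90.5, with overlapping groups and an adjusted p with the block of 0.228.

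The sensor and its transcription factor differed little. Hif1a, the oxygen-regulated subunit, read 1365, 1191 and 1148 with empty vector and 1571, 1105 and 1239 with miR-9/9*, and number 2 went against the other numbers. Its log2 difference was 0.07 (interval -0.11 to 0.24, adjusted p with the block 0.728), and since oxygen acts on the HIF-1 alpha protein, this message is not a measure of HIF activity. Egln3, a hydroxylase that hypoxia itself induces, read 630, 507 and 445 against 555, 488 and 444. It differed by -0.08 (interval -0.23 to 0.08, adjusted p with the block 0.633), and its other probe set lay 0.29 higher with miR-9/9*, so its direction depended on the probe set. Egln1, the main hydroxylase of HIF-1 alpha, differed by 0.00 (interval -0.18 to 0.19).

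Of the 7 tested hypoxia-induced genes, 5 had a lower mean with miR-9/9*, and their median difference was -0.10. Bnip3 read 488, 414 and 214 with empty vector and 301, 246 and 149 with miR-9/9*. Each miR-9/9* sample was below the empty vector sample of its number, but the empty vector sample of number 3 was below the miR-9/9* samples of numbers 1 and 2, so the groups overlapped. The group means were 372 ± 142 and 232 ± 76.7 (SD, n = 3 each), a ratio of 0.624. The log2 differences in the pairs were -0.67, -0.71 and -0.47, with a mean of -0.62. In the fit with the block its standard error was 0.0768, its interval -0.79 to -0.45 and its adjusted p 0.0052. Without the block the standard error was 0.319 and the adjusted p 0.999. With numbers 1, 2 and 3 left out in turn, the blocked adjusted p was 0.00852, 0.00735 and 0.00141. Each such fit has 1 residual degree of freedom, so its p leans on the variance shared over all genes. The call was lost in 1 of 14 blocked settings, the one without a variance trend (adjusted p = 0.0652). The Gapdh 3' to 5' ratio was lowest in number 3, as Bnip3 was, and the erythroid marker sum was higher in every miR-9/9* sample. In all 3 pairs, as for Bnip3, the late neutrophil sum was lower, and the megakaryocyte and eosinophil sums were higher. The part of any of these in the Bnip3 difference was not tested.

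**Figure D2:**
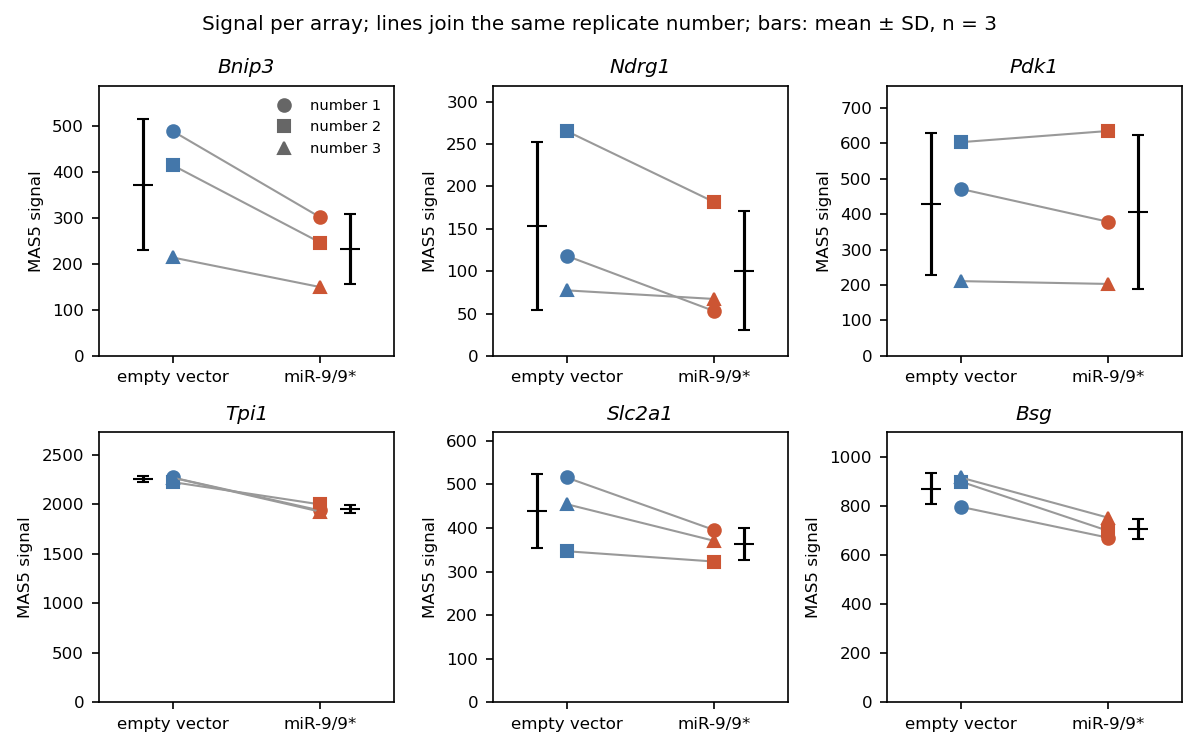
MAS5 signal per array for 6 genes, with lines that join samples of the same replicate number and bars for the mean ± SD of 3 samples. All 3 Bnip3 lines fall, from 488, 414 and 214 to 301, 246 and 149, the Pdk1 lines start at 3 separate heights and keep their order, and the Tpi1 and Bsg samples separate by group.

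Ndrg1, a stress-induced protein and a hypoxia marker in many cell types, is described because its difference was the next in size, a choice made after its values were seen. It read 118, 265 and 77.3 with empty vector and 52.9, 181 and 67.1 with miR-9/9*. In this main probe set all pairs were lower, by -0.96, -0.51 and -0.17, with number 2 high in both groups. Number 3 was higher in some of the other Ndrg1 probe sets, by 0.10 and 0.11, and the rest were lower in every pair. The mean log2 difference was -0.55 (interval -0.87 to -0.23), and the adjusted p was 0.0819 with the block and 0.999 without it. With number 3 left out the difference was -0.74 and the blocked adjusted p 0.00953, which passed the test. With number 1 left out they were -0.34 and 0.280, and with number 2 left out -0.56 and 0.143, which did not pass. Each such fit has 1 residual degree of freedom, so its p leans on the variance shared over all genes. With the Ndrg1 probe sets averaged and all samples kept, the difference was -0.37 and the blocked adjusted p 0.163.

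The remaining hypoxia-induced members did not pass the test. Higd1a, a mitochondrial protein linked to cytochrome c oxidase, read 1228, 1030 and 1281 against 1077, 1095 and 1114 (log2 difference -0.10, interval -0.28 to 0.08, adjusted p with the block 0.585). Kdm3a, a histone H3 lysine 9 demethylase, read 315, 344 and 266 against 358, 337 and 284 (0.08, interval -0.09 to 0.24, adjusted p 0.656). Vegfa, the endothelial growth factor, read 163, 173 and 115 against 160, 179 and 131 (0.06, interval -0.13 to 0.25, adjusted p 0.775). P4ha1, a collagen prolyl hydroxylase, differed by -0.15 and Ankrd37 by -0.06. P4ha2 was near the floor of the scale at 2.05 ± 2.21 and 0.418 ± 0.27 and was not tested. The means of the hypoxia-induced genes thus lay on both sides of 0, with Bnip3 and Ndrg1 lower by over 0.5 and Kdm3a and Vegfa slightly above 0. The intervals of Kdm3a and Vegfa included 0, and the other Vegfa probe set lay at -0.05. Whether these genes differ in direction was therefore not resolved.

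**Figure D3:**
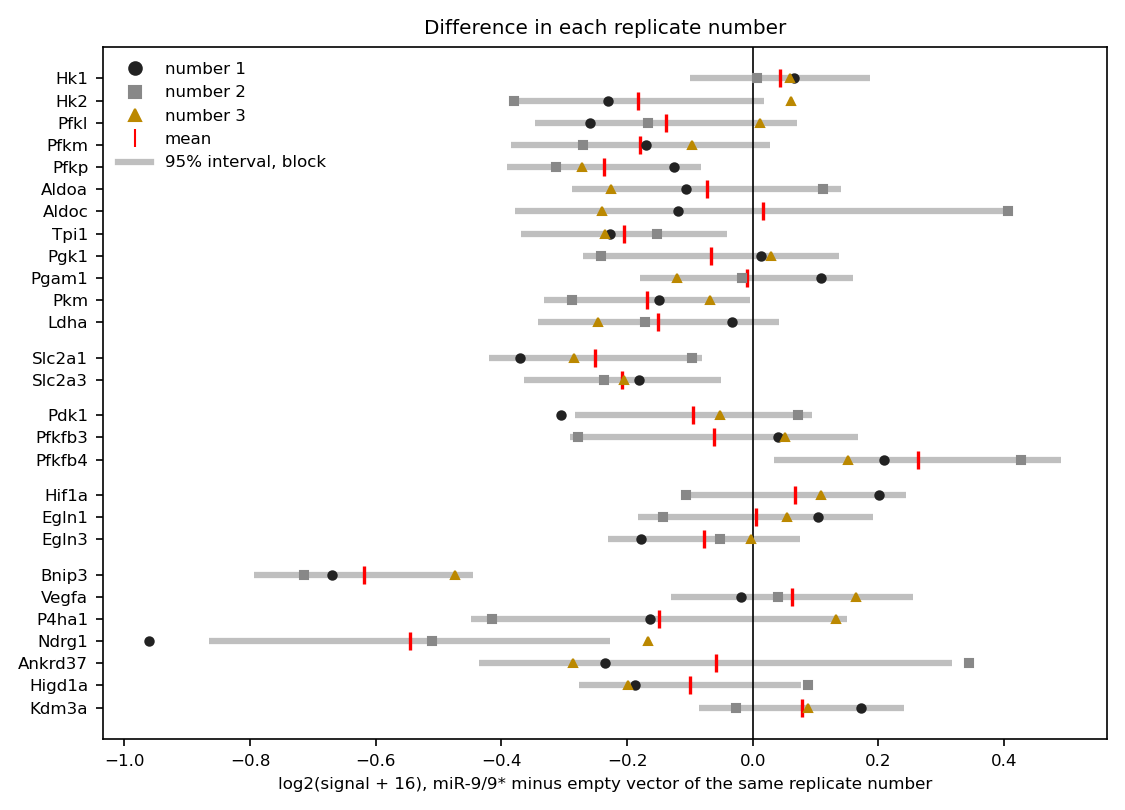
Difference between miR-9/9* and empty vector in log2(signal + 16) for each of the 27 tested members, by replicate number (symbols), with the mean (red tick) and the 95% interval of the blocked fit (grey bar). Bnip3 lies farthest from 0 at -0.62, Ndrg1 spans -0.96 to -0.17 over the numbers, and most enzyme means lie between -0.24 and 0.

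Several probe sets of a member allowed a check within the array. The 29 members had 65 probe sets, of which 59 were above the limit, and 17 members had more than 1 above it. In 10 of these 17 all probe sets had the same sign. The 5 Aldoa probe sets ran from -0.24 to -0.04 and the 5 Ndrg1 probe sets from -0.55 to -0.02. For Slc2a3 the dimmest of 3 probe sets above the limit lay at 0.30, with the others at -0.21 and -0.36, and for Pfkp the probe sets lay at -0.24, -0.09 and 0.23. When all 22492 probe sets above the limit were tested on their own, 1 member probe set was called with the block, that of Bnip3 (adjusted p = 0.00511), and 0 without it, where 2 probe sets were called in all. Probe set names that end in x_at or s_at mark probes that can match related transcripts, which applies to the main probe sets of Aldoa, Pgk1, Tpi1, Slc2a3 and Ndrg1.

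**Figure D4:**
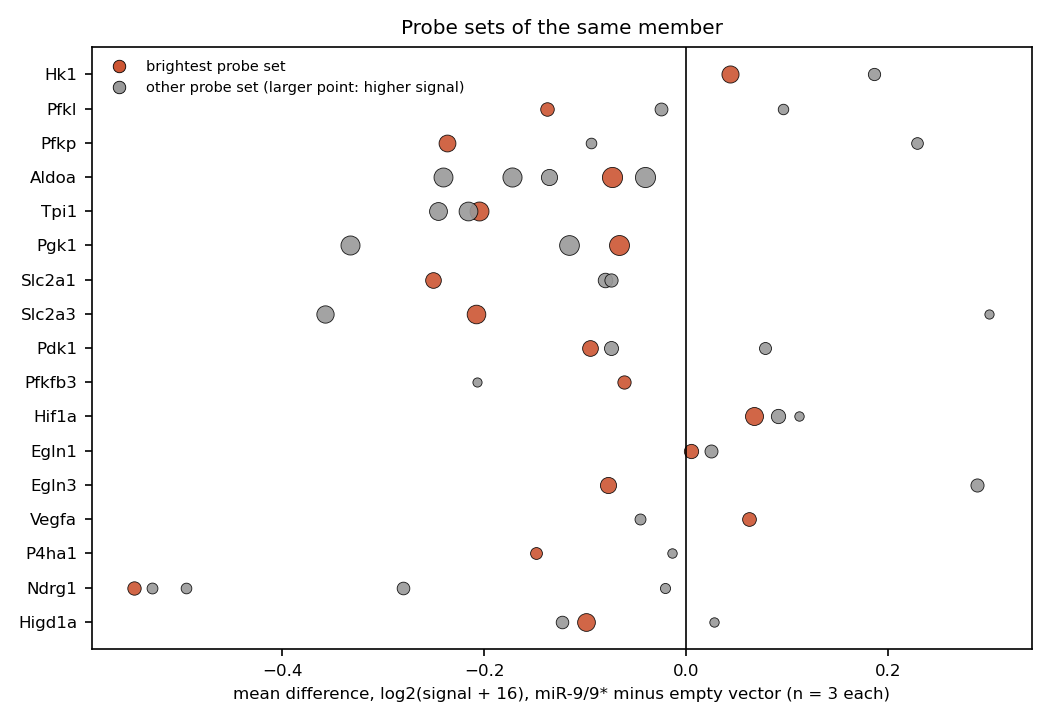
Mean difference between miR-9/9* and empty vector (log2(signal + 16), 3 samples each) for every probe set above the limit of the 17 members with more than 1, with the brightest in colour and point size by signal. The Aldoa, Tpi1, Slc2a1 and Ndrg1 points all lie below 0, whereas the Egln3 points lie on either side at -0.08 and 0.29.

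Several of these messages differed more between replicate numbers than between groups. An F test of the number in the blocked fit called 10 of 27 members, where 24.3% of all genes were called. They were Hk1, Pfkl, Slc2a1, Pdk1, Hif1a, Egln1, Egln3, Bnip3, Vegfa and Ndrg1, which makes 2 of 12 enzymes and 8 of 15 other members. For Pdk1 the means of numbers 1, 2 and 3 were 425, 619 and 207, a ratio of 2.99 between the highest and the lowest (adjusted p = 0.00014, F test). For Ndrg1 they were 85.5, 223 and 72.2, a ratio of 3.09 (adjusted p = 0.00189), and for Bnip3 395, 330 and 182, a ratio of 2.17 (adjusted p = 0.000705). The Tpi1 means were 2102, 2110 and 2096, with an adjusted p of 0.993. In both groups 12 of 27 members were lowest in number 3, where 29.2% of all genes were, among them Pdk1, Bnip3, Vegfa, Egln1 and Egln3. The members had no common pattern, since Hk1 and Slc2a1 were lowest in number 2, and Pdk1 and Vegfa were highest there while Bnip3, Egln1 and Egln3 were highest in number 1. What the numbers stand for is not given in the labels. The summed signal of 7 proliferation genes was highest in number 3, at 17341 and 16370 against 12462 to 13325 in the other samples, and its part in these values was not tested.

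**Figure D5:**
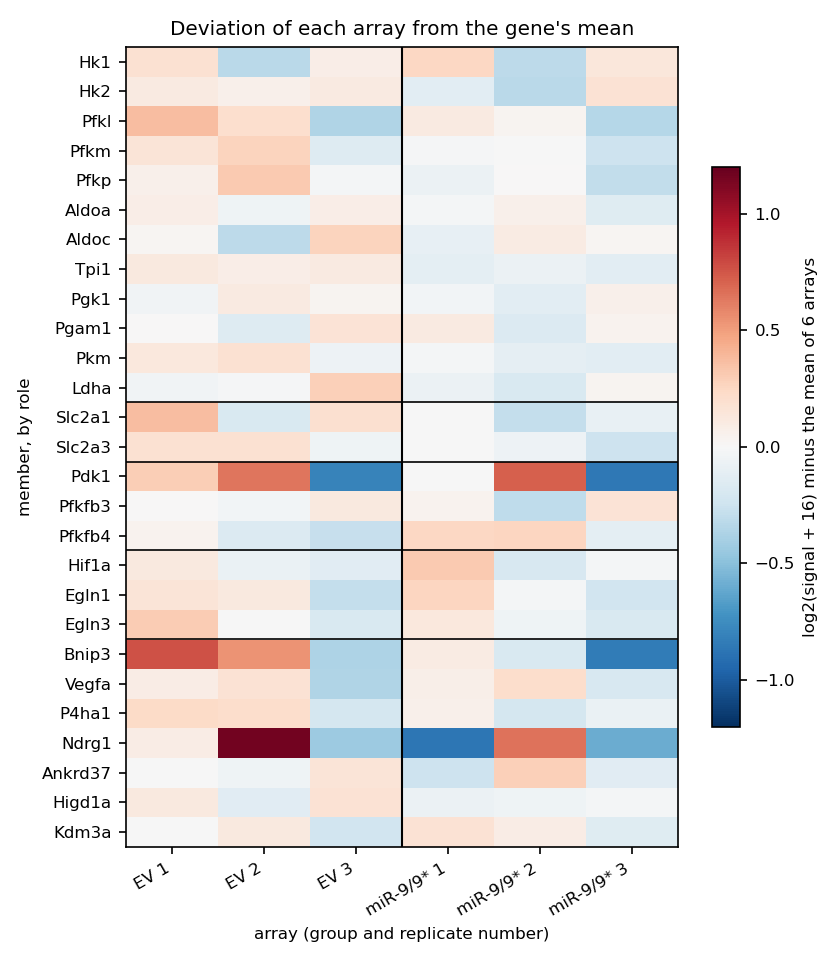
Deviation of each array from the gene's mean over 6 arrays, in log2(signal + 16), for the 27 tested members in rows by role and the arrays in columns by group and number. The Pdk1 colours repeat by number in both groups, Bnip3 is lowest in number 3 of each group and Ndrg1 highest in number 2, while the Tpi1 row changes colour at the line between the groups.

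The wider pathways were read from separate lists. Of 42 further genes of glycolysis and glucose use (the pentose phosphate pathway, gluconeogenesis, glycogen and related genes), 29 were tested. Of these, 13 were lower and 16 higher, with a median of 0.01. Bsg was the single gene called, lower with the block, where 1.44% of all genes were. Basigin is the chaperone that carries the lactate carriers MCT1 and MCT4 to the cell surface. It read 798, 901 and 918 with empty vector and 672, 700 and 754 with miR-9/9*, with no overlap. The log2 difference was -0.29 (interval -0.44 to -0.15), with an adjusted p of 0.0491 with the block and 0.981 without it. This call was at the edge of the threshold: it was lost when any replicate number was left out (adjusted p = 0.157, 0.142 and 0.0624), and it was also lost with other normalizations. The genes of this list with the highest mean signal were Tkt and Taldo1 of the pentose phosphate pathway, which differed by 0.01 and -0.08. In the same pathway Pgd was lower in each pair, at -0.24 (interval -0.42 to -0.05, adjusted p with the block 0.178). Rpe differed by -0.16, Rpia by 0.06 and Pgls by 0.02. Outside that pathway Pdk3 was higher in each pair, at 0.29 (interval 0.13 to 0.45, adjusted p with the block 0.0698). Pgd and Pdk3 were named after their values were seen. Of the 29 tested genes of this list, 3 were lower in all pairs, where 18.0% of all genes were, and 5 higher, where 21.0% were. Of 46 further hypoxia genes 29 were tested, 18 were lower and 11 higher, the median was -0.10, and 0 were called in either fit. With an unadjusted p below 0.05 in the blocked fit, 6 of them were lower, where 8.27% of all genes were, and 1 was higher, where 8.70% were. In number 3, 15 of these 29 were lowest in both groups, where 29.2% of all genes were. The F test of the number called 11 of them, where 24.3% of all genes were called. The cytokine Mif differed by 0.04 and the protein disulfide isomerase P4hb by -0.10.

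Since HIF binds the core letters ACGTG or GCGTG, the promoters of the members were searched for both on both strands, in windows from 250 bases before to 50 bases after each RefSeq start (GRCm38.p6). Windows were found for 30 of the 33 members, 46 in all, and 36 of them held a match (78.3%), against 43.8% of all 32851 windows. ACGTG was in 54.3% of the member windows and 19.6% of all windows, and GCGTG in 56.5% and 32.4%. Both hold a CG, and the member windows were richer in G and C, with a median of 62.8% against 52.7%. Of 26 enzyme windows 20 held a match, and those of Tpi1 and Gpi1 did not. Of 10 windows of hypoxia-induced genes 7 did. The 250 bases upstream of the start are shown for Bnip3, the called member, and for Higd1a and Kdm3a, the hypoxia-induced genes named by rule, 5' to 3' with the matches in capitals. Kdm3a has 3 windows, and the one shown was chosen because it held a match, while the other 2 held none.
Bnip3 (chr7:138909507-138909756, minus strand): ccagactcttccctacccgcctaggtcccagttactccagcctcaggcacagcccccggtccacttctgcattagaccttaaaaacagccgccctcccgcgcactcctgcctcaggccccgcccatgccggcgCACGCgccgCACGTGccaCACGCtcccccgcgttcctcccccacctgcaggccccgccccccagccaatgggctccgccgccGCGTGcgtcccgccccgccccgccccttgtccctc
Higd1a (chr9:121857797-121858046, minus strand): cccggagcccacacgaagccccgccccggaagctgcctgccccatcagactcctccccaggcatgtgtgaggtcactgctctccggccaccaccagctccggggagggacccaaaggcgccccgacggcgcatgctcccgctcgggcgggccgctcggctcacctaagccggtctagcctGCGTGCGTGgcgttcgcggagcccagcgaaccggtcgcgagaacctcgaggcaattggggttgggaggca
Kdm3a (chr6:71632918-71633167, minus strand): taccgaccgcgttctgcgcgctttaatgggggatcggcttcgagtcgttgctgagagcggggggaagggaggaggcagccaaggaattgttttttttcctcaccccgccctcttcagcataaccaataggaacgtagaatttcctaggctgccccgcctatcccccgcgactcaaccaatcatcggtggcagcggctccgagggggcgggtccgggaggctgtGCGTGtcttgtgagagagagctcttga
The Bnip3 stretch held 5 matches, 117, 108, 107, 99 and 35 bases before the start. Those at 108 and 107 are the same letters, CACGTG, read on both strands. Higd1a held 2 overlapping matches 70 and 66 bases before its start, and Kdm3a 1, 27 bases before the start shown. A match describes the letters of the promoter. Higd1a and Kdm3a did not pass the test between the groups, and binding was not measured.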

How the data were processed

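The deposited intensity values are MAS5 signals, per the submitters' processing notes, on a linear scale, with a mean of 100 on each array after the lowest and highest 2% are left out. Of 45101 probe sets, 64 controls were left out, 34958 carry 1 symbol in a 2016 platform annotation, and no gene was named from the 932 with several. The probe set with the highest mean stood for a gene. Probe sets whose mean log2(signal + 16) lay under the median of 4.86 were left out. The groups were compared on this scale in limma 3.58.1 under R 4.3.3, two-sided, by lmFit and eBayes with variance allowed to depend on level, with Benjamini-Hochberg adjustment over 10200 genes and a threshold of 0.05.

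The first design had no block (4 residual degrees of freedom). Deviations of same-numbered samples from their group means correlated at 0.492, 0.617 and 0.683, all above 0.1, so the numbers were taken to pair the samples, and blocked values stand beside the others. The labels give the numbers without their meaning, so the pairing rests on these correlations. The number itself was tested with an F test in the blocked fit.

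Named genes are called members and, per role, the 2 with the highest mean. Others were named after their values were seen. Members and lists were chosen with earlier results of these data known. Keeping the control probe sets was an alternative chosen after seeing the data. The scripts were tested on simulated data.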

Additional observations from a re-analysis of the deposited data

How the results depend on the processing

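The fit without a block called 2 genes higher and 4 lower in all, and 0 members under any setting, with 471 genes at an unadjusted p below 0.05. The higher and lower genes numbered 1 and 1 with a pseudocount of 1, 0 and 0 without the filter, 1 and 2 without a variance trend, 0 and 0 at a threshold of 0.01, 5 higher at a threshold of 0.1, and 2 lower after quantile normalization. Leaving out 1 sample gave 0 to 3 higher and 0 to 4 lower. With the replicate block, 154 genes were higher and 147 lower, and 1 member, Bnip3, was lower. With the replicate block combined with other settings the higher and lower genes were 146 and 137 (pseudocount 1), 149 and 146 (pseudocount 64), 36 and 31 (no filter), 166 and 163 (stricter filter), 140 and 137 (quantile), 118 and 151 (arrays centred on their medians), 21 and 17 (no variance trend), 158 and 152 (robust eBayes), 125 and 107 (probe sets averaged), 49 and 41 (threshold 0.01), 299 and 267 (threshold 0.1), and 154 and 147 (control probe sets kept). Without each replicate number in turn they were 89 to 187 and 79 to 198. In these settings 1 member was lower, Bnip3, except for 2 at a threshold of 0.1 and without number 3 (Bnip3 and Ndrg1) and 0 without a variance trend. The F test of the replicate number called 2480 genes and 10 members, 881 and 5 without a variance trend, and 1070 and 5 without the filter. The cause of these changes was not tested.

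Averaging the probe sets of a gene moved Pfkp from -0.24 to -0.03 and Pgk1 from -0.07 to -0.17. The blocked adjusted p of Bsg ran from 0.0373 with the stricter filter to 0.186 without a variance trend. The members with a lower mean numbered 21 of 27 after quantile normalization and 22 of 27 with centred arrays, and 13 of 27 members kept their sign in every setting run, leave-outs included. The median of all genes lay between -0.01 and 0.01 under these scalings. With 3 samples a group, differences inside the printed intervals could not be resolved, and detection calls were not used here.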
